A study of Sus scrofa with 6 samples.

Results

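Sirtuins are deacylases that remove acetyl and other acyl groups from lysines of proteins and use up NAD+ as a cofactor. The 7 mammalian members, SIRT1 to SIRT7, were looked up by gene name in the table of normalized transcript abundance, and all 7 were found among its 17678 genes. Each was described in porcine parthenogenetic embryos, that is, in eggs activated without sperm. The comparison addressed how messenger RNA differs after loss of SIN3A, the scaffold protein of a repressor complex that carries zinc-dependent histone deacetylases.

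The NC group consisted of embryos injected as mature oocytes with a non-specific siRNA as negative control. The KD group consisted of embryos injected at the same point with siRNAs against *SIN3A*. Both groups were activated afterwards and collected at the 2-cell stage, 32 h after activation. There were 3 poly(A) RNA libraries per group, each from a pool of 20 embryos, so a value is a mean over many embryos and shows no difference between single embryos. The study's text calls the replicates independent, and neither it nor the labels say whether they came from separate batches of oocytes. The p-values below measure the spread between these libraries, part of which may be technical.

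The estimated depth was 10900000, 7800000 and 13000000 reads in NC replicates 1, 2 and 3, and 11800000, 15800000 and 10200000 reads in KD replicates 1, 2 and 3. It was read from the low values, of which 67.8% to 75.1% per library fell within 0.05 steps of a whole multiple of 1 step, taken as the worth of 1 read. NC replicate 2 was the shallowest library and KD replicate 2 the deepest.

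The targeted gene was examined first. The normalized value of *SIN3A* was 37361, 33964 and 32404 in the NC libraries and 3271, 1079 and 4173 in the KD libraries. All KD libraries lay far below all NC libraries, in the direction the labels give. The means were 34576 ± 2534 and 2841 ± 1591 (SD, n = 3 each), so the KD mean was 8.22% of the NC mean. The log2 fold change, on log2(value + 1), was -3.81 with a standard error of 0.31 (limma, Benjamini-Hochberg adjusted p = 8.45e-06). An exact two-sided permutation test gave p = 0.1, the smallest that 3 against 3 libraries allow. The adjusted p did not pass 0.05 in limma without a variance trend (0.423) or with the robust empirical Bayes step (0.469).

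The tissue label was checked against marker genes. Of 13 oocyte and early embryo markers, 11 were found by name and 10 passed the filter of the test, a mean value of 10 or more. Their summed value was 93258 ± 5038 in NC and 96343 ± 10358 in KD embryos (SD, n = 3 each), with *KPNA7*, an importin of the egg, as the most abundant. After it came *BMP15*, a growth factor of the oocyte, with a log2 fold change of 0.13, and *H1FOO*, the linker histone of the egg, with one of -0.10. Of the 10 tested markers, 0 were called by limma, beside 0.159% of all tested genes. At an unadjusted p under 0.05 in limma there were 0 of these markers, beside 553 of all 11986 genes. *FIGLA*, at a mean of 7.86, was the marker found but too low to test, and *DPPA3* and *NLRP5* were not found by name. Of 15 markers of cumulus and granulosa cells, the somatic cells that surround the oocyte, 11 were found and 3 reached a mean of 10.

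*VCAN*, a matrix proteoglycan, made up most of the cumulus and granulosa sum, at 816 ± 94.0 in NC and 782 ± 64.4 in KD embryos (SD, n = 3 each). Without *VCAN* the summed value was 44.6, 43.8 and 44.2 in the NC libraries and 39.6, 33.4 and 70.2 in the KD libraries. KD replicate 3 was the highest library and KD replicate 2 the lowest. The other tested markers of these cells were *STAR*, of steroid synthesis, with a log2 fold change of 0.43, and *INHBA*, an inhibin subunit, with one of -0.66, both at low values that overlapped. Of the 3 tested, 0 were called by limma, beside 0.159% of all tested genes, and 0 had an unadjusted p under 0.05, beside 553 of 11986. *PTX3* and *PTGS2*, genes of the expanding cumulus, were listed at 0 in all 3 KD libraries and at no more than 3.13 in the NC libraries. Of the 8 markers found but too low to test, *PTX3*, *PTGS2*, *TNFAIP6*, *AMH* and *CD44* had lower KD means, and *CYP19A1*, *FOXL2* and *CYP11A1* had higher ones. *CYP19A1*, the aromatase, was 3.55, 0 and 1.94 in NC and 9.27, 3.26 and 10.7 in KD libraries. *FOXL2* and *CYP11A1* were highest in KD replicate 3, at 13.1 and 14.2. *FOXL2* was 1.95 and 2.90 in KD replicates 1 and 2 and 1.05, 1.47 and 2.53 in the NC libraries. *CYP11A1* was 0.974 and 2.88 in KD replicates 1 and 2 and 2.93 to 5.22 in the NC libraries. The higher KD mean of *CYP11A1* thus rested on KD replicate 3. These untested markers were named after their values were seen. *FSHR*, *HAS2*, *HSD3B1* and *LHCGR* were not found by name. According to the methods, cumulus cells had been stripped from the oocytes with hyaluronidase, and the part of any that remained in the sirtuin values was not tested.

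Sirtuins share a catalytic core that binds NAD+ and couples its cleavage to the removal of the acyl group, so that their activity follows the supply of this metabolite. SIRT1, SIRT6 and SIRT7 act mainly in the nucleus on histones and transcription factors, SIRT2 acts mainly in the cytosol, and SIRT3, SIRT4 and SIRT5 act in mitochondria. In oocytes and early embryos sirtuins have been studied for their part in chromatin, spindle assembly and the defence against oxidative stress, at a stage that lives largely on messenger RNA stored in the egg.

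Sequences of the cofactor-binding motif are shown for 6 members because they mark a gene as a member of the family and show how far the members differ in their transcripts. The stretches are 30 coding bases each, 5′ to 3′ on the coding strand, from the RefSeq annotation of Sscrofa11.1. Capitals mark the codons of the Gly-Ala-Gly and the Ser of the motif.
SIRT6: GGCGCGGGCatcAGCaccgcctcaggcatc
SIRT7: GGCGCGGGGatcAGCacggcggcctctatc
SIRT2: GGAGCTGGAatcTCCacccgcggcatccct
SIRT3: GGGGCCGGCatcAGCacgcccagcggcatt
SIRT4: GGAGCAGGAatcTCCactgagtcggggatt
SIRT5: GGGGCTGGCgttAGTgccgagagtgggatt

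The stretch of *SIRT6* lies at chr2:74570888-74570917 on the plus strand, that of *SIRT3* at chr2:49259-49288 on the minus strand, that of *SIRT4* at chr14:40295511-40295540 on the plus strand and that of *SIRT5* at chr7:9954077-9954106 on the plus strand. Each of these is within 1 coding exon. The stretches of *SIRT7* and *SIRT2* cross an exon junction, and their spans include an intron. The span is chr12:1078676-1080608 on the plus strand for *SIRT7* and chr6:47693572-47693752 on the minus strand for *SIRT2*. Over the 15 pairs of these 6 members, 12 to 22 of the 30 bases were identical. The pairs of *SIRT3* with *SIRT6* and of *SIRT6* with *SIRT7* had 22 identical bases, and *SIRT2* with *SIRT5* had 12. Bases were compared position by position without gaps. The Gly-Ile codons after the Ser lie 1 codon earlier in *SIRT2* than in *SIRT3*, *SIRT4*, *SIRT5* and *SIRT6*. The counts of *SIRT2* therefore depend on comparing without gaps. Over the 21 pairs of all 7 members, the longest run shared by their mRNAs was 9 to 17 bases, so an exact match longer than 17 bases belonged to at most 1 member of the family.

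*SIRT1* (ENSSSCG00000010235), a deacetylase of histones and of transcription factors such as the FOXO proteins, lies at chr14:71091167-71126351 on the plus strand. Its normalized value was 1591, 1299 and 1120 in the NC libraries and 1180, 1155 and 1206 in the KD libraries. The NC libraries spread over a wide range that took in all KD libraries, which lay close together. The means were 1337 ± 238 in NC and 1180 ± 25.8 in KD embryos (SD, n = 3 each). This gave a log2 fold change of -0.16 with a standard error of 0.12 and a 95% interval from -0.41 to 0.08. The adjusted p was 0.997 (limma, Benjamini-Hochberg), as for each of the other 6 members, and the exact two-sided permutation test gave p = 0.4. NC replicate 1 set much of this difference, since the log2 fold change was -0.03 without it. Without NC replicate 3 it was -0.28, with an unadjusted p of 0.0283 and an adjusted p of 0.953 in limma. Over all alternatives the adjusted p of *SIRT1* in limma was never below 0.869.

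*SIRT6* (ENSSSCG00000013496), a histone H3 deacetylase that acts at telomeres, in DNA repair and on genes of glucose use, lies at chr2:74568539-74577774 on the plus strand. Its value was 36.7, 50.3 and 33.8 in the NC libraries and 55.7, 67.7 and 36.2 in the KD libraries. KD replicates 1 and 2 were above every NC library, while KD replicate 3 lay between NC libraries, so the groups overlapped. The means were 40.3 ± 8.84 and 53.2 ± 15.9 (SD, n = 3 each). The log2 fold change of 0.37, with a standard error of 0.30 and a 95% interval from -0.26 to 0.999, was the largest of the family in absolute size with all 6 libraries. It ranged from 0.17 without KD replicate 2 to 0.62 without KD replicate 3. Other members were larger in absolute size without NC replicate 3 (*SIRT1* and *SIRT2*), KD replicate 1 (*SIRT2*) or KD replicate 2 (*SIRT4* and *SIRT5*). The exact two-sided permutation test gave p = 0.3.

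*SIRT7* (ENSSSCG00000034695), a nucleolar member that associates with RNA polymerase I, lies at chr12:1078155-1084112 on the plus strand. It was measured at 123, 147 and 139 in the NC libraries and at 154, 108 and 135 in the KD libraries. The highest and the lowest library were both KD libraries, and the NC libraries lay between them. With means of 136 ± 11.9 and 132 ± 23.2 (SD, n = 3 each), the log2 fold change was -0.05, its standard error 0.19 and its 95% interval -0.44 to 0.34 (exact two-sided permutation p = 0.8). It was 0.084 without KD replicate 2 and 0.0017 without NC replicate 2, so its sign also turned on single libraries.

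*SIRT2* (ENSSSCG00000026794), the mainly cytosolic member known as a deacetylase of alpha-tubulin, lies at chr6:47682427-47703408 on the minus strand. It gave 33.8, 25.2 and 14.1 in the NC libraries and 29.7, 17.0 and 14.3 in the KD libraries. Both groups ran over nearly the same range, and NC replicate 1 and KD replicate 1 were the high libraries. The means were 24.4 ± 9.83 and 20.3 ± 8.17 (SD, n = 3 each), and the log2 fold change was -0.23 with a standard error of 0.43. Its 95% interval, from -1.13 to 0.67, was the widest of the family (exact two-sided permutation p = 0.8). The sign turned without NC replicate 1, where the log2 fold change was 0.036.

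*SIRT3* (ENSSSCG00000014558), the main deacetylase of the mitochondrial matrix, lies at chr2:38465-55074 on the minus strand. Its value was 85.7, 136 and 102 in the NC libraries and 120, 121 and 119 in the KD libraries. The KD libraries were almost equal and lay inside the range of the NC libraries, of which replicate 2 was the highest of all. From means of 108 ± 25.9 and 120 ± 1.17 (SD, n = 3 each), the log2 fold change was 0.18, with a standard error of 0.20 and a 95% interval from -0.25 to 0.60 (exact two-sided permutation p = 0.4). It was 0.03 without NC replicate 1 and 0.36 without NC replicate 2.

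*SIRT4* (ENSSSCG00000009901), which acts on glutamate dehydrogenase and on lipoyl groups of the pyruvate dehydrogenase complex, lies at chr14:40290288-40303887 on the plus strand. It was 47.0, 32.2 and 39.2 in the NC libraries and 33.1, 36.0 and 35.0 in the KD libraries. Again the KD libraries sat close together inside the NC range. The means were 39.5 ± 7.38 and 34.7 ± 1.48 (SD, n = 3 each), and the log2 fold change was -0.16 with a standard error of 0.29 and a 95% interval from -0.78 to 0.45 (exact two-sided permutation p = 0.4). It was -0.03 without NC replicate 1 and -0.30 without NC replicate 2.

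*SIRT5* (ENSSSCG00000031129), which removes succinyl, malonyl and glutaryl groups, lies at chr7:9951024-9968004 on the plus strand. Its value was 62.7, 36.7 and 39.0 in the NC libraries and 46.8, 31.1 and 56.7 in the KD libraries. NC replicate 1 was the highest and KD replicate 2 the lowest, with the others mixed between them. The means of 46.1 ± 14.4 and 44.9 ± 12.9 (SD, n = 3 each) gave a log2 fold change of -0.04, with a standard error of 0.31 and a 95% interval from -0.69 to 0.62 (exact two-sided permutation p = 1). The direction of a difference this small turned on single libraries: the log2 fold change was 0.20 without NC replicate 1 and also without KD replicate 2.

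**Figure D1:**
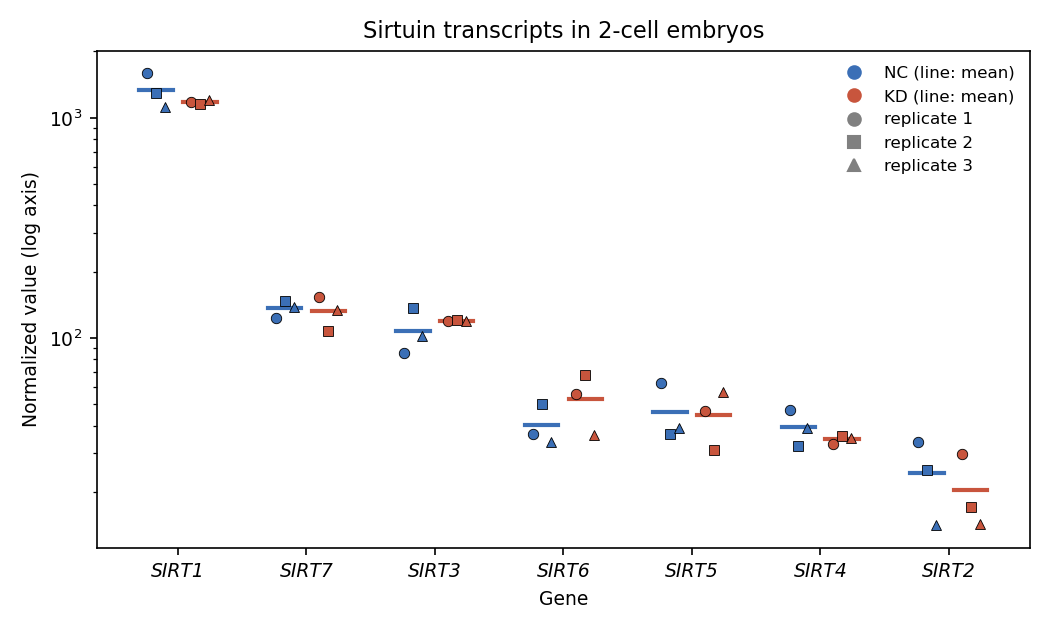
Normalized value (log axis) of each sirtuin gene in the 3 NC (blue) and 3 KD (red) libraries, with symbols for the replicates and a line at each group mean. The NC and KD points overlap for all 7 genes, and *SIRT1*, at 1120 to 1591, lies above all other members.

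Taking the family as a whole, 0 of 7 sirtuins were called at an adjusted p below 0.05 by limma with Benjamini-Hochberg adjustment, and 0 had an unadjusted p under 0.05. Among all 11986 genes tested, those with a mean of at least 10, limma called 19 (0.159%), of which 7 were higher and 12 lower in KD embryos, and 553 had an unadjusted p under 0.05. The count of 19 was 11 without KD replicate 2, 12 without NC replicate 2, 12 without NC replicate 3 and 0 without the variance trend, where 622 genes had an unadjusted p under 0.05. The NC and KD values did not overlap for 0 of 7 sirtuins and for 1173 of all tested genes (9.79%). With 7 members, a count of 0 is near both shares. The log2 fold change was above 0 for 2 members, *SIRT3* and *SIRT6*, and below 0 for 5, with a median of -0.05, beside a median of 0.0026 over all tested genes, of which 49.4% were lower. This split turned on single libraries, since 4 members were above 0 without NC replicate 1 (median 0.026) and 4 without KD replicate 2 (median 0.084). With all libraries, the 95% intervals of 5 sirtuins lay inside ±0.8, the limit on the absolute log2 fold change in the study's methods, and those of *SIRT2* and *SIRT6* reached past it. The count of 5 also turned on single libraries. *SIRT4* had -0.30 with a standard error of 0.33 without NC replicate 2. *SIRT5* had 0.20 with a standard error of 0.33 without NC replicate 1. In these fits both intervals passed ±0.8. A value is a share of the RNA of pooled embryos, so fewer cells with a transcript and less of it per cell cannot be told apart.

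**Figure D2:**
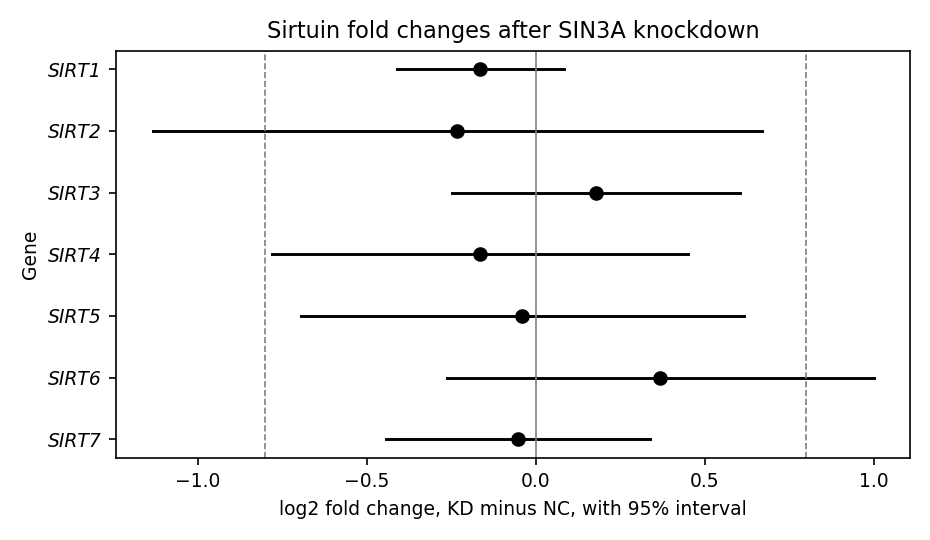
Log2 fold change of KD against NC embryos for each sirtuin (point) with its 95% interval from limma (line), and dashed lines at an absolute log2 fold change of 0.8. All 7 intervals include 0, and those of *SIRT2* and *SIRT6* pass a dashed line.

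Members differed widely in the number of reads behind their values. The estimated number of reads per library was 888 to 1604 for *SIRT1*, 100 to 163 for *SIRT7* and 82 to 168 for *SIRT3*. It was 33 to 94 for *SIRT6*, 25 to 60 for *SIRT5*, 22 to 50 for *SIRT4* and 13 to 32 for *SIRT2*, the thinnest member. For *SIRT1* the coefficient of variation over the 6 libraries was 13.8%, whereas counting error alone would give 2.85%. For *SIRT4* it was 14.6% and counting error alone would give 16.6%, and for *SIRT2* it was 37.5% against 21.4%.

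The within-group SD of log2 values was 0.18 for *SIRT1*, and 81.4% of the 1406 tested genes of like mean had a smaller one. *SIRT1* thus varied more between replicates than most genes of its abundance, mainly through the NC libraries. The same SD was 0.19 for *SIRT4*, with 7.90% of 1683 genes of like mean below it. For the other 5 members, 42.4% to 69.8% of the genes of like mean had a smaller SD.

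To order the members by level, values were divided by the length of the longest RefSeq mRNA. On this scale the mean over the 6 libraries was 179 per kb for *SIRT1* (range 159 to 226), 63.7 per kb for *SIRT3* (47.9 to 76.2) and 55.6 per kb for *SIRT7* (44.7 to 63.8). It was 48.4 per kb for *SIRT5* (33.0 to 66.7), 34.7 per kb for *SIRT6* (25.1 to 50.2), 24.9 per kb for *SIRT4* (21.6 to 31.5) and 12.2 per kb for *SIRT2* (7.74 to 18.5). On the scale of the longest mRNA, 2 steps in this order exceeded the spread between libraries. The mean of *SIRT1* was 2.81 times that of *SIRT3*, and that of *SIRT4* was 2.03 times that of *SIRT2*, each in 6 of 6 libraries and without overlap of the ranges. The ranges of all other neighbours overlapped, with ratios of 1.15 for *SIRT3* over *SIRT7* and for *SIRT7* over *SIRT5*, and of 1.39 for *SIRT5* over *SIRT6* and for *SIRT6* over *SIRT4*. With the shortest mRNA of each gene, *SIRT7* ranged from 74.2 to 105.9 per kb and no longer overlapped with *SIRT5*.

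Among the 9763 tested genes with a RefSeq length, the level per kb placed *SIRT1* at percentile 71.5, *SIRT3* at 51.1, *SIRT7* at 48.5, *SIRT5* at 45.8, *SIRT6* at 39.5, *SIRT4* at 33.6 and *SIRT2* at 21.5. So *SIRT1* was in the upper part of the embryo's transcripts and *SIRT2* in the lower. *SIRT1* took 48.2%, 42.6% and 42.6% of the summed sirtuin level per kb in the NC libraries and 39.2%, 41.7% and 41.6% in the KD libraries. With the longest mRNA, all NC shares were above all KD shares, by a narrow margin except in NC replicate 1. Without division by length the shares of the groups overlapped. *SIRT1* was then 1299 of a summed 1726 in NC replicate 2 and 1206 of 1602 in KD replicate 3, the larger share. The models differ in completeness, since that of *SIRT5* has only 14 untranslated bases in 941, and the longest mRNA of *SIRT1* has 7040 bases against 3982 in the shortest.

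The summed level per kb of the family was 425 ± 48.0 in NC and 411 ± 17.3 in KD embryos (SD, n = 3 each), and these overlapped. The nuclear members *SIRT1*, *SIRT6* and *SIRT7* summed to 276 ± 31.9 per kb and 262 ± 9.73 per kb (SD, n = 3 each). The mitochondrial members *SIRT3*, *SIRT4* and *SIRT5* summed to 136 ± 10.7 per kb and 138 ± 12.7 per kb (SD, n = 3 each). In both compartments the group means differed by less than the SD of the NC libraries, and for the nuclear members by more than the SD of the KD libraries.

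The transcript models also differed in composition. The gene with the lowest GC content in its longest mRNA was *SIRT1*, at 36.4%, followed by *SIRT4* at 49.9%, *SIRT3* at 55.0% and *SIRT5* at 59.0%. *SIRT2* had 60.2%, *SIRT6* 61.5% and *SIRT7* 62.3%. The longest annotated protein ran from 308 residues for *SIRT5* to 742 residues for *SIRT1*, whose long ends flank the shared core.

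Some sirtuin genes have a close neighbour, and values of the nearest annotated genes within 5 kb were compared in the same way. *HERC4*, a ubiquitin ligase gene on the opposite strand, shares 252 exonic bases with the 3′ end of *SIRT1*. Its value was 956 ± 59.4 in NC and 1030 ± 127 in KD embryos (SD, n = 3 each), which is 0.10 as a log2 fold change. The strand setting of the read assignment is not given in the sources used here, so reads from the shared bases cannot be told apart. *PSMD13*, a proteasome subunit gene that starts 33 bases from *SIRT3* on the opposite strand, was 200.3 ± 5.32 and 207 ± 49.7 (SD, n = 3 each). *RIC8A*, on the other side of *SIRT3*, had a low mean of 12.5. It reached the minimum mean of 10 only through the KD libraries, with means of 9.55 in NC and 15.4 in KD embryos. Its log2 fold change of 0.84, with a 95% interval from -0.35 to 2.02 and overlapping groups, is therefore given as description only.

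Beside *SIRT2*, *NFKBIB*, an inhibitor of NF-kappa-B, had a log2 fold change of 0.08, and *RINL* did not reach a mean of 10. *NOL7*, a nucleolar protein gene 1478 bases from *SIRT5*, had a log2 fold change of 0.16, and *CREB3L3*, a transcription factor gene 696 bases from *SIRT6*, had one of -0.04. *ANKRD24*, 136 bases from *SIRT6*, had a mean of 12.4. A long non-coding RNA gene on the opposite strand spans *SIRT4* with 0 shared exonic bases, and it was not found by name.

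*SIRT7* lies between *MAFG*, a small MAF transcription factor gene 73 bases away, and *PCYT2*, an enzyme of phosphatidylethanolamine synthesis whose gene starts 303 bases away on the same strand. *MAFG* had a log2 fold change of 0.10. *PCYT2* was 8.35, 10.2 and 8.57 in the NC libraries and 25.3, 28.5 and 30.8 in the KD libraries. All KD libraries were above all NC libraries, unlike those of *SIRT7* itself. It was the only gene without overlap among the 9 tested neighbours, beside 9.79% of all tested genes. However, *PCYT2* reached the minimum mean of 10 only through the KD libraries. Its lack of overlap and its test are therefore given as description only. The means were 9.06 ± 1.04 and 28.2 ± 2.73 (SD, n = 3 each), and the log2 fold change was 1.54 with a standard error of 0.41 and a 95% interval from 0.67 to 2.41. The difference did not pass the threshold in limma (unadjusted p = 0.00173, Benjamini-Hochberg adjusted p = 0.406), and the exact two-sided permutation p was 0.1.

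Other genes with a profile close to that of a sirtuin were sought over the 6 libraries, by the root mean square difference of log2 values after subtraction of each gene's mean. Nearest to *SIRT1*, the member with the highest value, were *PPWD1*, a cyclophilin-type isomerase, at 0.046, *HSPA5*, a chaperone of the endoplasmic reticulum, at 0.049 and *FUNDC1*, a mitophagy receptor, at 0.050. The median over all genes was 0.26, and the deviation of *SIRT1* from its own mean was 0.17. Nearest to *SIRT6*, the member with the largest absolute log2 fold change over all 6 libraries, were *IGDCC4* at 0.12, *SCN1A*, a sodium channel subunit, at 0.13 and *CD109*, a surface glycoprotein, at 0.13, with a median over all genes of 0.42. Among so many genes some lie close to any profile of 6 values.

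Genes that make, recycle or convert NAD+ and its precursors bear on the supply of the cofactor. Of 26 listed, 21 were found and 14 tested, and 0 were called by limma, beside 0.159% of all tested genes. An unadjusted p under 0.05 in limma was reached by 0 of the 14, beside 553 of all 11986 genes. Of the 14 tested genes of this list, 7 were higher and 7 lower in KD embryos, with a median log2 fold change of 0.0079. The most abundant was *NADK*, the cytosolic NAD kinase, at 8557 ± 953 in NC and 9402 ± 792 in KD embryos (SD, n = 3 each). *PNP*, a purine nucleoside phosphorylase, was 3635 ± 370 and 3682 ± 224 (SD, n = 3 each), and *NNT*, the mitochondrial transhydrogenase, was 3585 ± 120 and 3576 ± 279 (SD, n = 3 each).

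The largest absolute log2 fold changes in this list were -0.81 for *HAAO* of the kynurenine pathway, whose values were low and overlapped, and 0.34 for *AFMID*, the formamidase of that pathway. *HAAO* reached the minimum mean of 10 only through the NC libraries, with means of 14.1 in NC and 8.08 in KD embryos. Its fold change is therefore given as description only. *AFMID* was 152, 126 and 147 in the NC libraries and 193, 180 and 164 in the KD libraries. Among the 14 tested genes of the list it was the only gene whose groups did not overlap, beside 9.79% of all tested genes, and it did not pass the test (limma, unadjusted p = 0.0537, Benjamini-Hochberg adjusted p = 0.997). *NAMPT*, the rate-limiting enzyme of the salvage pathway and named here after its values were seen, was 326 ± 36.8 in NC and 395 ± 92.0 in KD embryos (SD, n = 3 each), with overlapping groups.

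Other enzymes that consume NAD+ include the ADP-ribosyltransferases of the PARP family. Of 17 listed, 16 were found and 12 tested. Limma called 0 of the 12, beside 0.159% of all tested genes, and 0 had an unadjusted p under 0.05, beside 553 of 11986 genes. In this list 8 genes were higher and 4 lower in KD embryos, with a median log2 fold change of 0.06. *PARP12*, a mono-ADP-ribosyltransferase, was the most abundant at 12991 ± 834 in NC and 13499 ± 977 in KD embryos (SD, n = 3 each). *PARP1*, the main sensor of DNA breaks, was 2459 ± 195 and 2573 ± 106 (SD, n = 3 each), and *TNKS2*, a tankyrase, was 1917 ± 143 and 1919 ± 91.3 (SD, n = 3 each).

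*PARP2*, a second DNA break sensor, was 80.2, 84.7 and 91.7 in the NC libraries and 53.5, 70.4 and 62.6 in the KD libraries, without overlap. Its log2 fold change of -0.46, with a 95% interval from -0.92 to 0.0021, did not pass the test in limma (Benjamini-Hochberg adjusted p = 0.997). *PARP9* had a log2 fold change of 0.68 at low values that overlapped. *PARP4*, named after its values were seen, was the other of 2 tested genes of the list without overlap (9.79% over all tested genes), at 262 ± 18.6 in NC and 304 ± 11.9 in KD embryos (SD, n = 3 each).

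Substrates and partners of the nuclear and cytosolic sirtuins were next. Of 26 listed, 25 were found and 22 tested. Among the 22, limma called 0, beside 0.159% of all tested genes, and 0 had an unadjusted p under 0.05, beside 553 of 11986. Of these 22 genes, 12 were higher and 10 lower in KD embryos, with a median log2 fold change of 0.02. *BUB1B*, a checkpoint kinase that SIRT2 stabilizes, was 6994 ± 817 in NC and 6742 ± 364 in KD embryos (SD, n = 3 each). *TUBA1B*, an alpha-tubulin, was 2341 ± 394 and 2679 ± 193 (SD, n = 3 each), and *CDC20*, an activator of the anaphase-promoting complex, was 2113 ± 139 and 2297 ± 368 (SD, n = 3 each).

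The coactivator gene *PPARGC1A* had a log2 fold change of 0.73 that came from KD replicate 3, at 31.5 beside no more than 7.32 in the other 5 libraries. *PPARGC1A* reached the minimum mean of 10 only through that library, so its fold change is given as description only. *RELA*, an NF-kappa-B subunit and a target of SIRT1, was 97.6, 110.1 and 105.7 in the NC libraries and 87.8, 88.7 and 86.5 in the KD libraries. Among the 22 tested genes of this list it was the only gene without overlap, beside 9.79% of all tested genes. Its log2 fold change was -0.25 with a 95% interval from -0.65 to 0.15 (limma, Benjamini-Hochberg adjusted p = 0.997). *CCAR2*, an inhibitor of SIRT1 named after its values were seen, was 634 ± 72.5 and 696 ± 28.98 (SD, n = 3 each) with overlapping groups.

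Of 22 listed substrates of the mitochondrial sirtuins, 21 were found and 18 tested. There were 0 called by limma, beside 0.159% of all tested genes, and 1 had an unadjusted p under 0.05, beside 553 of 11986 genes. Fold changes of the 18 were above 0 on the log2 scale for 7 and below 0 for 11, with a median of -0.09. *GLUD1*, the glutamate dehydrogenase, was 1758 ± 61.0 in NC and 1794 ± 58.2 in KD embryos (SD, n = 3 each), and *SDHA*, a subunit of complex II, was 1206 ± 84.0 and 1278 ± 56.1 (SD, n = 3 each).

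*ACADM*, the medium-chain acyl-CoA dehydrogenase of fatty acid oxidation, was 312, 288 and 275 in the NC libraries and 229, 163 and 225 in the KD libraries. All KD libraries were below all NC libraries. Its log2 fold change was -0.52 with a standard error of 0.16 and a 95% interval from -0.85 to -0.18. It did not pass the threshold in limma (unadjusted p = 0.00458, Benjamini-Hochberg adjusted p = 0.632), and the exact two-sided permutation p was 0.1.

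In 4 of the 18 tested mitochondrial substrates the groups did not overlap, all with lower KD values, beside 1173 (9.79%) of all tested genes, 581 with higher and 592 with lower KD values. Besides *ACADM* these were *OPA1*, a fusion GTPase, at 1457 ± 19.6 and 1414 ± 43.2 (SD, n = 3 each), and *MCCC2* and *IDH2*, both named after their values were seen. *MCCC2*, of leucine breakdown, was 364 ± 33.0 and 313 ± 19.7 (SD, n = 3 each), and *IDH2*, the mitochondrial isocitrate dehydrogenase, was 172 ± 3.68 and 145 ± 20.9 (SD, n = 3 each). *CPS1*, of the urea cycle, had a log2 fold change of 0.90 with overlapping groups. It was 14.6, 10.2 and 31.7 in the NC libraries and 36.0, 13.6 and 68.1 in the KD libraries, with KD replicate 3 as the highest.

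The genes for ribosomal RNA synthesis stand close to SIRT7. Of 11 listed, 10 were found and tested. Calls by limma were 0, beside 0.159% of all tested genes, and 1 gene had an unadjusted p under 0.05, beside 553 of 11986. Of the 10 genes, 3 were higher and 7 lower in KD embryos, with a median log2 fold change of -0.03. *UBTF*, the upstream binding factor of RNA polymerase I, was 1353, 1236 and 1270 in the NC libraries and 1609, 1614 and 1455 in the KD libraries. Every KD library was above every NC library, and among the 10 tested genes of this list it was the only gene without overlap, beside 9.79% of all tested genes. For *UBTF* the log2 fold change was 0.28 with a 95% interval from 0.08 to 0.48, and it did not pass the threshold in limma (unadjusted p = 0.00969, Benjamini-Hochberg adjusted p = 0.852). *DDX21*, a nucleolar helicase, was 5076 ± 134 and 4991 ± 201 (SD, n = 3 each), and *ELK4*, a transcription factor that associates with SIRT7, was 1808 ± 141 and 1925 ± 88.0 (SD, n = 3 each). *POLR1A*, the large subunit of the polymerase, had a log2 fold change of -0.15.

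The zinc-dependent deacetylases, the other family of lysine deacetylases, include the enzymes that SIN3A recruits. Of 11 listed, 10 were found and 8 tested, 0 were called by limma, 0 had an unadjusted p under 0.05 and 0 had groups without overlap, beside 0.159% called and 9.79% without overlap among all tested genes. There were 4 higher and 4 lower in KD embryos, with a median log2 fold change of 0.02, beside -0.05 for the 7 sirtuins. The log2 fold change was 0.17 for *HDAC1*, 0.14 for *HDAC3* and -0.26 for *HDAC2*, the 3 with the highest values. *HDAC5* had 0.76, with KD replicate 3 at 40.1 and the other 5 libraries at 9.60 to 20.2.

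Per kb, the mean level over the 6 libraries was 457 for *HDAC1*, 331 for *HDAC3* and 213 for *HDAC2*, and the lowest library of *HDAC1* and of *HDAC3* was above the highest of *SIRT1*, at 226. The ranges of *HDAC2*, 172 to 249, and of *SIRT1*, 159 to 226, overlapped. This order depended on the mRNA taken: with the shortest mRNA of each gene, *SIRT1* ranged from 281 to 399.6 per kb, which overlapped with *HDAC3*, at 307 to 421, and with *HDAC1*, at 398 to 505, and lay above *HDAC2*. *HDAC7*, named after its values were seen, was at 13.5 per kb, near *SIRT2* at 12.2 per kb.

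**Figure D3:**
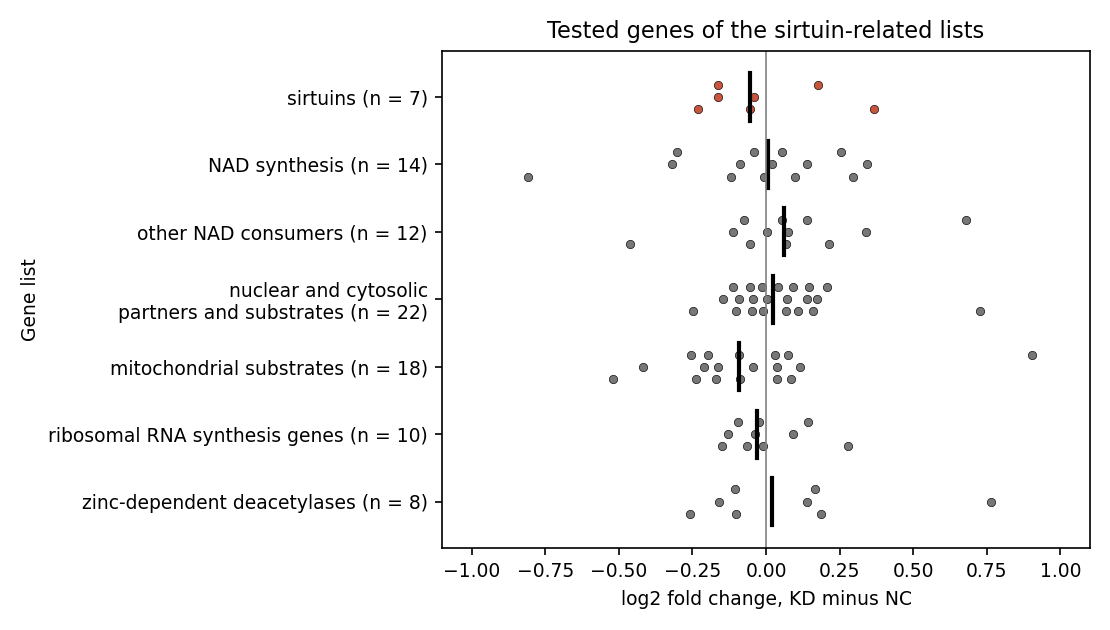
Log2 fold change of KD against NC embryos for each tested gene (points) of the sirtuins (red) and of 6 related gene lists (grey), with a bar at the median of each list. The medians lie between -0.09 and 0.06, and 0 of these genes were called, beside 0.159% of all tested genes.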

How the data were processed

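Messenger RNA was sequenced from 3 NC and 3 KD libraries of 2-cell embryos, with groups and numbers as the sample titles give them. Per the submitters' processing notes, Salmon 0.14.1, DESeq2 and Sscrofa11.1 were used, and the methods state that reads were assigned to porcine transcripts with Salmon. The table the authors deposited holds normalized signal values, 1 row for each Ensembl gene. Median ratios between libraries were equal, so size factors had been applied. Because only 67.8% to 75.1% of the low values per library were whole multiples of 1 step, within 0.05 steps, whole reads could not be had, and the count tests that the design allowed for were left out. Read numbers are estimates, value divided by step, and counting error is that of these estimates. The spike-in mRNAs were not used here.

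Members were matched by gene name, and 3575 of 17678 genes carried none. The members and the gene lists were chosen with earlier results of these data known. Genes with a mean of at least 10 were fitted in R 4.3.3 by limma 3.58.1 (lmFit, eBayes with a variance trend) on log2(value + 1), with Benjamini-Hochberg adjustment over 11986 genes. A fold change on this scale understates the change of low genes. For single genes an exact permutation test, two-sided, was added (scipy 1.17.1). Named are SIN3A, the sirtuins, the called members of each list or otherwise the 3 with the highest mean and the 2 with the largest absolute log2 fold change, nearest neighbours within 5 kb, and the 3 closest profiles for 2 sirtuins. Other genes given with values are marked as named after their values were seen. Positions, lengths and sequences are those of RefSeq for Sscrofa11.1, read with pysam 0.24.0 and Biopython 1.88, and matched 81.5% of tested genes by symbol. The authors' quantification may rest on other transcript models. Python 3.11.15, numpy 2.4.6, pandas 2.3.3 and matplotlib 3.10.9 were used, and the fit was tested on simulated data. The fit was repeated with a pseudocount of 0.1 or 10, without a filter, with a minimum mean of 100, after quantile normalization or TMM-like rescaling, without the variance trend, with the robust empirical Bayes step, with the replicate block and without each library, and levels with other lengths. The motif stretch of 1 member is not reported here. Immunofluorescence, qPCR and embryo culture were not analysed here.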

Additional observations from a re-analysis of the deposited data

How the results depend on the processing

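Of 101 sirtuin fold changes under an alternative, 96 kept their direction and stayed on the same side of the threshold in limma, and 5 turned, all by leaving out 1 library. The adjusted p of the sirtuins was 0.817 or more throughout (limma, Benjamini-Hochberg). Leaving out each library in turn gave a log2 fold change of -0.56 to 0.036 for *SIRT2*, -0.23 to 0.20 for *SIRT5* and -0.17 to 0.084 for *SIRT7*. It turned for *SIRT2* without NC replicate 1, for *SIRT5* without NC replicate 1 or KD replicate 2, and for *SIRT7* without NC replicate 2 or KD replicate 2, and the cause was not tested. It ran from -0.28 to -0.03 for *SIRT1*, 0.03 to 0.36 for *SIRT3*, -0.30 to -0.03 for *SIRT4* and 0.17 to 0.62 for *SIRT6*. With a mean of at least 100, 3 sirtuins were tested.

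The log2 fold change of *SIN3A* was -3.81 with no variance trend (limma adjusted p = 0.423) and with robust empirical Bayes (0.469), which did not pass the threshold, and the cause was not tested. Leaving out 1 library gave -4.20 to -3.22. The number of all genes called, 19 in the reported fit, was 0 with no variance trend, where 622 had an unadjusted p under 0.05 in limma, and 11 to 19 when a library was left out. It fell most without KD replicate 2 (11) and without NC replicate 2 or 3 (12 each). It was 14 to 23 with other pseudocounts, filters or scalings and with robust empirical Bayes. Sirtuins and genes of the 6 related lists called were 0 under each setting run, with 0 sirtuins at an unadjusted p under 0.05 except 1, *SIRT1*, without NC replicate 3.

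With the replicate block, limma called 26 genes, 676 had an unadjusted p under 0.05, and 0 sirtuins were called. Same-numbered libraries correlated by 0.087 to 0.111 (mean 0.103) after subtraction of group means and other pairs by -0.083 to -0.021, so every library correlated best with its own number, as a hint from the data and not from the design, but not all pairs reached 0.1.

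With the shortest mRNA the level per kb was 316 for *SIRT1*, 113 for *SIRT3* and 92.2 for *SIRT7*. Without division by length the mean value was 1259 for *SIRT1*, 134 for *SIRT7*, 114 for *SIRT3*, 46.7 for *SIRT6*, 45.5 for *SIRT5*, 37.1 for *SIRT4* and 22.3 for *SIRT2*, so *SIRT7* and *SIRT3*, and *SIRT6* and *SIRT5*, changed places. Depth limits *SIRT2* most, at 13 to 32 estimated reads. The edgeR and DESeq2 alternatives were not run because the values are not counts.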
